A study of Mus musculus with 8 samples.

Results

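Collagen chain genes were followed in microdissected cardiac outflow tracts of mouse embryos at E10.5. The members are the array's genes whose name is Col, a number, the letter a and a number, which gave 40 genes and 59 probes of the 36451 gene names and 55681 probes on the array. Probes that the array design names otherwise (Dvwa, Gm7455 and Emid2, known also as Col6a4, Col6a5 and Col26a1) fall outside the rule, and Col6a3 and Col21a1 were not analysed here. Both groups were retinoic acid-rescued: their dams ate powdered food with all-trans-retinoic acid at 0.1 mg/g from E7.5 to E8.5. The first group was Raldh2-/- (4 pools, numbered 1, 2, 3 and 7) and the second wild type littermates (4 pools, numbered 1, 2, 5 and 7), each pool holding 4 outflow tracts. Raldh2, named Aldh1a2 on the array, encodes the main enzyme that makes retinoic acid in the early embryo. The groups therefore compare loss of the enzyme on top of an earlier retinoic acid supply that the controls received too, and no group without the supplement was analysed here.

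Collagens are secreted proteins whose chains wind around each other in a helix of Gly-X-Y repeats, in which every position near the axis must be glycine. Fibrillar collagens build the tension-bearing fibrils, basement membrane collagens the sheets under epithelium, endocardium and muscle, FACITs (fibril-associated collagens with interrupted helices) decorate fibrils, and the remaining chains form beaded filaments, short networks, anchoring fibrils or stay in the cell membrane. In the outflow tract the cushions that later divide the vessels and form valves are filled with such matrix, secreted by myocardium, endocardium and invading mesenchyme.

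Of the 59 collagen probes, 5 held the helix repeat by the following rule. In a reading frame without a stop codon, at least 4 positions spaced 9 bases apart held a glycine codon. These positions need not follow each other directly. Of all 55681 probes on the array, 105 met the rule. The 5 collagen probes are shown because they place at least part of the measurement in the coding sequence of the helix. Capitals mark the glycine codons at those positions. Sequences are the 60-base probes of the array, 5′ to 3′, and positions are on mm9.
Col25a1, chr3:130270497-130270556, plus strand: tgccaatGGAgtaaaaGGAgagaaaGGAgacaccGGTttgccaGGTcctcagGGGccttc
Col15a1, chr4:47283786-47283845, plus strand: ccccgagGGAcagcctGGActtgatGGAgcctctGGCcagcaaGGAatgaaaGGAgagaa
Col16a1, chr4:129756457-129756516, plus strand: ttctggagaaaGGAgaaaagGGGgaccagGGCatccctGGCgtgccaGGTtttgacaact
Col14a1, chr15:55347733-55347792, plus strand: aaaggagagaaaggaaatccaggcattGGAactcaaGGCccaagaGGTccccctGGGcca
Col13a1, chr10:61330216-61330585, minus strand: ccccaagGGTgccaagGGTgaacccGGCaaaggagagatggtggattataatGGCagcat
The Col13a1 probe spans 370 bases of genome for its 60 bases, so it crosses at least an intron. Glycine codons stood at 4 of its 6 positions, and its last capitals follow positions without one, so the repeat is not unbroken there. This probe stands for its gene below. The Col16a1, Col14a1 and Col25a1 repeat probes are further probes of genes that other, brighter probes stand for, and that of Col15a1 was too dim to be kept.

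Each array gave a processed signal per probe, and values below are log2 signals minus the log2 of that array's 75th percentile, so 0 is the signal that 75% of probes do not exceed. Probes had to be well above background on 3 or more arrays of the same group to be kept, and each gene is given by its brightest kept probe (highest mean over the arrays). That left 33 collagen genes and 45 probes: 11 of 11 fibrillar genes, 6 of 8 basement membrane genes, 8 of 9 FACITs and 8 of 12 others. Col4a3, Col15a1, Col19a1, Col6a6, Col10a1, Col17a1 and Col28a1 were not kept. Since a probe may be kept through 1 group alone, counts over the kept genes describe them and are not counts over all members. Levels of different probes are not comparable, so genes are compared only with themselves across pools.

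The array labelled wild type pool 1 was unlike the other 7. Its values correlated with those of the other arrays at a median of 0.68, against 0.97 to 0.99 for the others, and 94.7% of its spots were well above background, against 53.3% to 63.2%. Among collagen probes the excess lay in the dim ones: 11 probes that were not above background on any other array read a median of 206 times the median of the other arrays, and 9 of them counted as above background there. The 8 collagen probes with a median over 10000 elsewhere read 0.741 to 1.35 times that median. Because the 75th percentile of this array was 4202, against 654 to 1127 elsewhere, scaling placed its bright collagen genes low and its dim ones high. Fits were therefore made on the 7 other arrays (4 Raldh2-/- and 3 wild type pools) and on all 8, which take this array by its label. Both fits used limma with Benjamini-Hochberg adjustment over all kept probes. All Raldh2-/- arrays lay in 1 row of the slide and all wild type arrays in the other, so genotype and the row of the slide cannot be told apart. Pools came from separate tracts, and p-values measure the spread between these arrays.

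**Figure D1:**
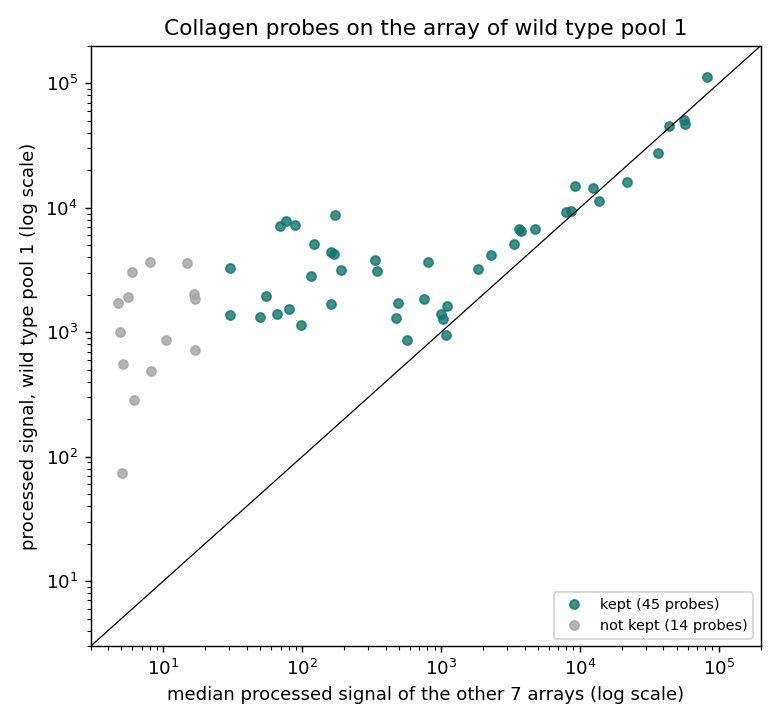
Each point is 1 of the 59 collagen probes: its processed signal on the array of wild type pool 1 (vertical, log scale) against its median on the other 7 arrays (horizontal, log scale), with the line of equality. Bright probes lie near the line and dim probes, kept or not, lie far above it.

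Aldh1a2, the targeted gene, was lower in each Raldh2-/- pool than in wild type pools 2, 5 and 7, but did not set the array labelled wild type pool 1 apart from the Raldh2-/- pools. It read 2.04, 2.02, 1.88 and 0.073 in Raldh2-/- pools 1, 2, 3 and 7, and 3.22, 2.99 and 3.66 across wild type pools 2, 5 and 7. In wild type pool 1 it was 1.93, below Raldh2-/- pools 1 and 2, while the unscaled signal of that array, 15974, was the highest of the 8. The difference was -1.79 ± 0.50 (log2, ± SE) over 7 arrays and -1.45 ± 0.55 over 8, with limma adjusted p of 0.381 and 0.749. Which part of the transcript this probe reads relative to the deleted part was not analysed here.

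No collagen gene passed the adjusted threshold of 0.05 in either fit. Over 7 arrays, 21 of the 33 kept genes (63.6%) were lower and 12 higher in Raldh2-/- tracts, with a median difference of -0.097 (log2). Of all 23740 genes 40.3% were lower, with a median of 0.055. Over 8 arrays the count turned to 13 lower (39.4%) and 20 higher and the median to 0.17. Of all 24385 genes 42.9% were lower there, with a median of 0.13. No probe at all passed the adjusted threshold in either fit: 0% of 32383 probes over 7 arrays and 0% of 33400 over 8, with 3290 and 587 probes at an unadjusted limma p under 0.05. The smallest adjusted p of a collagen gene was 0.376 over 7 arrays and 0.749 over 8. The 95% confidence interval of a collagen gene over 7 arrays, not adjusted for the number of probes, reached a median of 0.63 to either side. Differences below that size were mostly not told apart from 0 with these pools, even before adjustment. Larger ones, such as -0.83 for Col6a1 and 1.13 for Col24a1, missed the adjusted threshold too. In these bulk samples, fewer cells of a type and less RNA per cell cannot be told apart.

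Below the threshold, 5 collagen genes had an unadjusted limma p under 0.05 over 7 arrays, and the same 5 had groups that did not overlap. They were Col4a1, Col4a2, Col6a1 and Col6a2, lower in Raldh2-/- tracts, and Col24a1, higher. Over these 7 arrays the Col24a1 probe was kept through the Raldh2-/- group alone, where it is high. The 4 lower genes are 12.1% of the kept collagen genes, against a background of 4.16% of all genes at that p and 4.80% with no overlap in that direction. These genes are partner chains, Col4a1 with Col4a2 and Col6a1 with Col6a2. Each pair had a Pearson's r of 0.95 over the 7 pools. That r spans both groups, so it includes the difference by which these genes were picked. The 4 genes were not taken as separate observations. The 1 higher gene is 3.03%, against backgrounds of 6.03% at that p and 6.62% with no overlap. Over all 8 arrays 0 collagen genes did either, against backgrounds at unadjusted p under 0.05 of 1.11% lower and 0.673% higher, and without overlap of 1.52% lower and 4.01% higher.

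**Figure D2:**
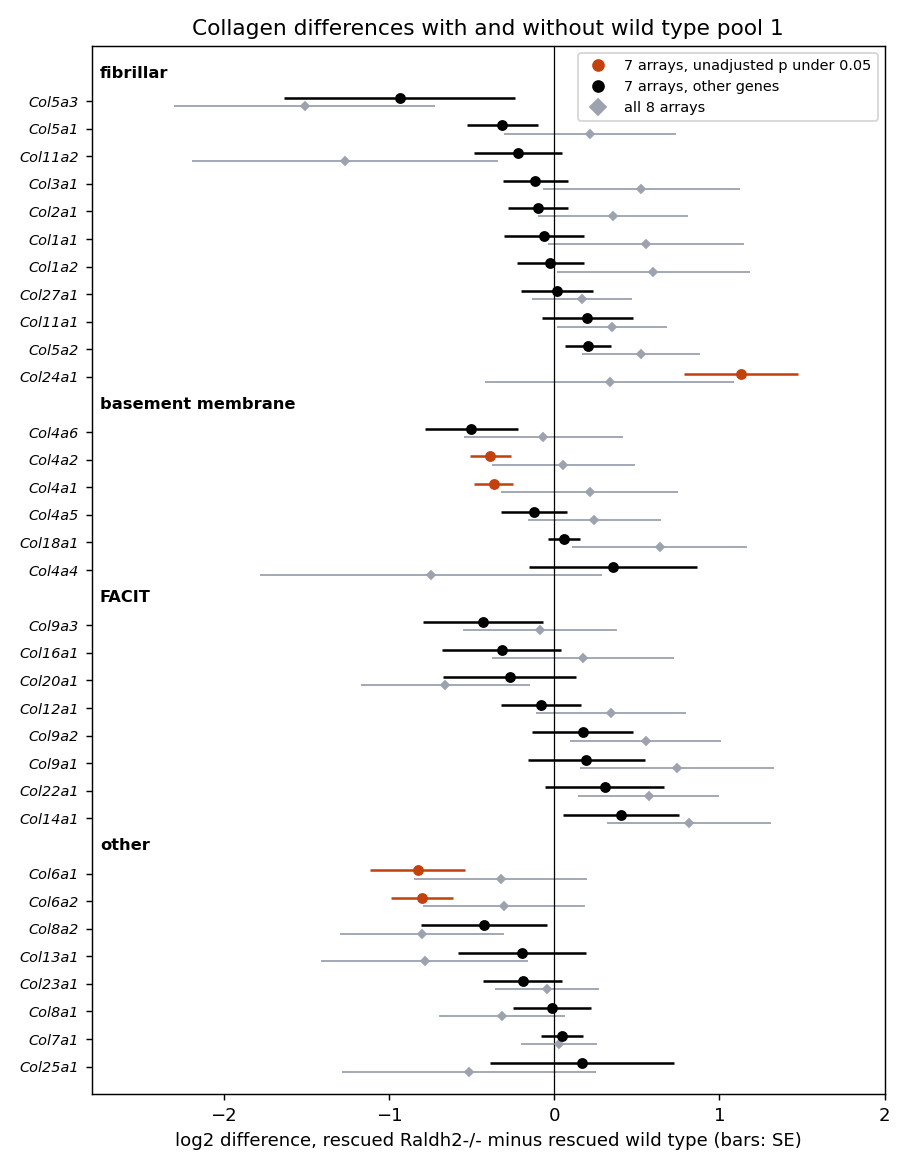
Log2 difference, rescued Raldh2-/- minus rescued wild type, for the 33 kept collagen genes by class, with SE as bars. Circles use 7 arrays (coloured where the unadjusted limma p is under 0.05) and grey diamonds all 8, which lie to the right of the circles for most bright genes. No gene passed the adjusted threshold in either fit, and 10 of 29 named genes changed sign between the fits.

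**Figure D3:**
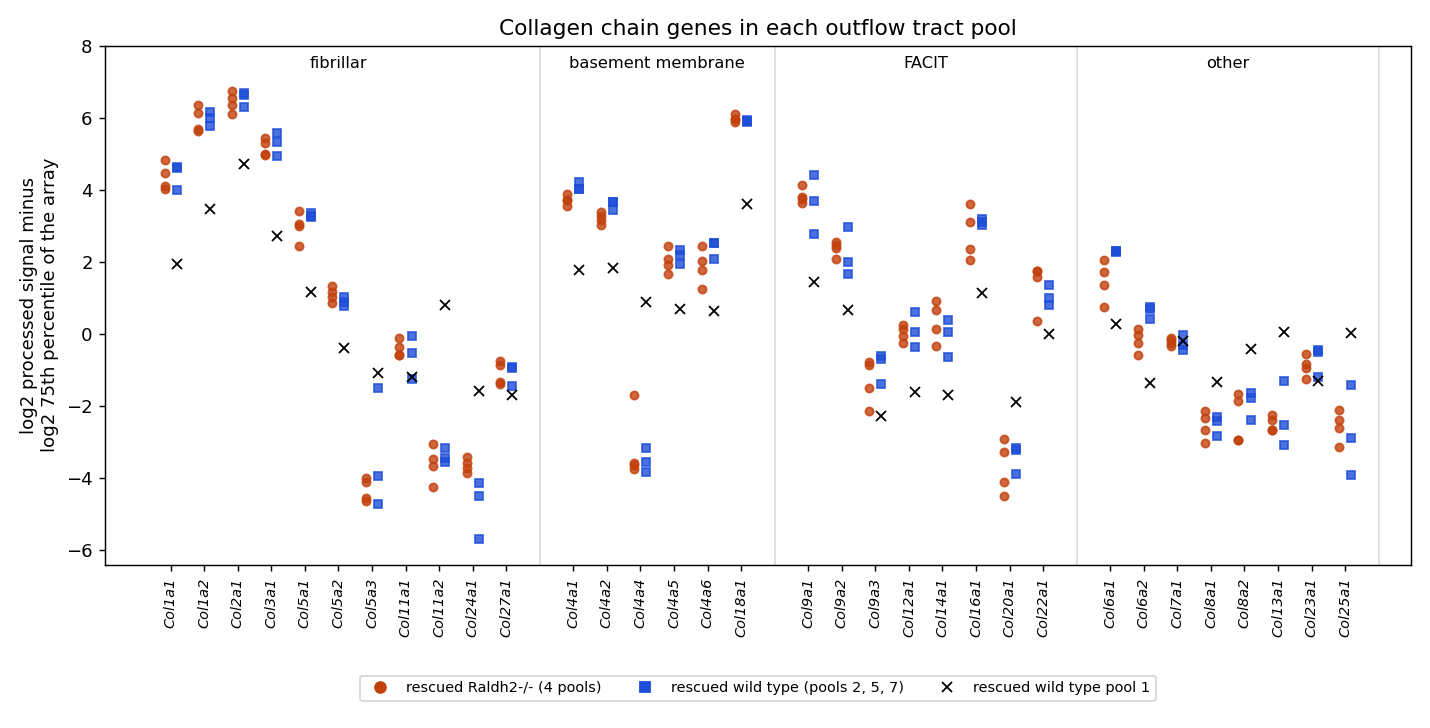
Values of the 33 kept collagen genes in each pool, as log2 processed signal minus the log2 75th percentile of the array, by class. Orange circles are Raldh2-/- pools, blue squares wild type pools 2, 5 and 7, and crosses wild type pool 1, which lies below the rest for bright genes and above them for dim ones. Heights of different genes are not comparable.

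Among basement membrane chains, the pair Col4a1 and Col4a2 was lower in each Raldh2-/- pool than in each of the 3 other wild type pools. These chains together form the type IV network of nearly every basement membrane. Col4a1 (probe at chr8:11199009-11199068, minus strand) read 3.56, 3.71, 3.90 and 3.73 in Raldh2-/- pools 1, 2, 3 and 7, 4.03, 4.02 and 4.22 across wild type pools 2, 5 and 7, while wild type pool 1 was at 1.77. The group means were 3.73 ± 0.14 (SD, n = 4) and 4.09 ± 0.11 (SD, n = 3 without pool 1). The difference of -0.37 ± 0.12 corresponds to a signal 1.29-fold lower (limma unadjusted p = 0.0162, adjusted p = 0.406). With all 8 arrays it was 0.22 ± 0.54 (adjusted p = 0.839), since pool 1 was the lowest of all pools. Col4a2 (chr8:11448840-11448899, plus strand) read 3.04, 3.28, 3.39 and 3.17 in the Raldh2-/- pools and 3.68, 3.46 and 3.68 across wild type pools 2, 5 and 7, against 1.84 in pool 1. Its difference was -0.39 ± 0.12, or 1.31-fold lower (limma unadjusted p = 0.0154, adjusted p = 0.402), and 0.054 ± 0.43 over 8 arrays (adjusted p = 0.951). In both genes the highest Raldh2-/- pool was number 3 and the lowest number 1. Without wild type pool 1, the Col4a1 difference lay between -0.57 and -0.30 and that of Col4a2 between -0.59 and -0.33 over 10 settings (these 7 arrays, another scaling of them, or a further pool left out). Leaving out a further pool could not turn the sign, since the groups do not overlap over these 7 arrays. With pool 1 included, Col4a1 was higher in Raldh2-/- tracts in 17 of 20 settings and Col4a2 in 16 of 20.

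The other basement membrane chains did not separate the groups. Col4a5 and Col4a6 are a second pair of type IV chains, found for example around smooth muscle. Col4a6 (chrX:137599990-137600049, minus strand) read 2.02, 1.79, 2.46 and 1.25 in Raldh2-/- pools and 2.08, 2.54 and 2.52 across wild type pools 2, 5 and 7, a difference of -0.50 ± 0.28 (adjusted p = 0.565 by limma). Raldh2-/- pool 3 lay among the wild type pools and pool 7 far below them. Col4a5 read 2.09, 1.93, 2.46 and 1.67 and 1.95, 2.33 and 2.21 in the same pools, a difference of -0.12 ± 0.20, with the groups interleaved. A second Col4a6 probe gave -0.20 ± 0.12. Wild type pool 1 read 0.63 for Col4a6 and 0.70 for Col4a5, and with it the differences were -0.066 ± 0.48 and 0.24 ± 0.40.

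Col18a1, whose chain carries the endostatin fragment in vessel and epithelial basement membranes, had the smallest SE of the kept collagen genes over 7 arrays. It read 5.96, 6.11, 5.97 and 5.88 in Raldh2-/- pools and 5.94, 5.93 and 5.90 across wild type pools 2, 5 and 7, a difference of 0.060 ± 0.096 with a 95% interval of -0.16 to 0.29. The inclusion of wild type pool 1, at 3.61, moved the difference to 0.64 ± 0.53. A second Col18a1 probe gave -0.086 ± 0.11 over 7 arrays. Col4a4, a chain best known from the kidney filter, was dim, at -3.57, -3.64, -3.75 and -1.70 in Raldh2-/- pools, -3.56, -3.84 and -3.16 across wild type pools 2, 5 and 7, and 0.89 in pool 1. Only Raldh2-/- pool 7 stood above its group, and the difference was 0.36 ± 0.51 over 7 arrays and -0.75 ± 1.04 over 8. Of the 6 kept basement membrane genes, 4 were lower over 7 arrays, with a median of -0.24, which was negative under each of the 10 settings without wild type pool 1. Over 8 arrays the median was 0.13, and it turned to -0.28 under quantile normalization of the same arrays.

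Among the remaining chains, Col6a1 and Col6a2 showed the widest separation of the lower genes. Their chains assemble, with a further chain, into the beaded filaments of type VI collagen that surround cells. Col6a1 (chr10:76171538-76171597, minus strand) read 1.71, 1.35, 2.06 and 0.75 in Raldh2-/- pools 1, 2, 3 and 7 and 2.30, 2.27 and 2.31 across wild type pools 2, 5 and 7. The value of wild type pool 1 was 0.29. The group means were 1.47 ± 0.56 (SD, n = 4) and 2.29 ± 0.019 (SD, n = 3 without pool 1), so the spread lay in the Raldh2-/- pools, with pool 7 lowest and pool 3 close to the wild type. The difference was -0.83 ± 0.29, a signal 1.77-fold lower (limma unadjusted p = 0.0228, adjusted p = 0.43), and -0.32 ± 0.53 with all 8 arrays (adjusted p = 0.772). Col6a2 (chr10:76058931-76058990, minus strand) read -0.028, -0.24, 0.15 and -0.57 in Raldh2-/- pools, 0.69, 0.43 and 0.76 across wild type pools 2, 5 and 7, and -1.37 in pool 1. Its difference was -0.80 ± 0.19, or 1.74-fold lower (limma unadjusted p = 0.00344, adjusted p = 0.376), with a 95% interval of -1.24 to -0.36. Over 8 arrays it was -0.30 ± 0.49 (adjusted p = 0.772). The Raldh2-/- pools stood in the same order for both genes, with 3 highest, then 1, 2 and 7. Over the 10 settings without wild type pool 1 the Col6a1 difference lay between -1.03 and -0.59 and that of Col6a2 between -1.01 and -0.67. Here too, leaving out a further pool could not turn the sign. With pool 1 included, 19 and 17 of 20 settings placed Col6a1 and Col6a2 lower in Raldh2-/- tracts.

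**Figure D4:**
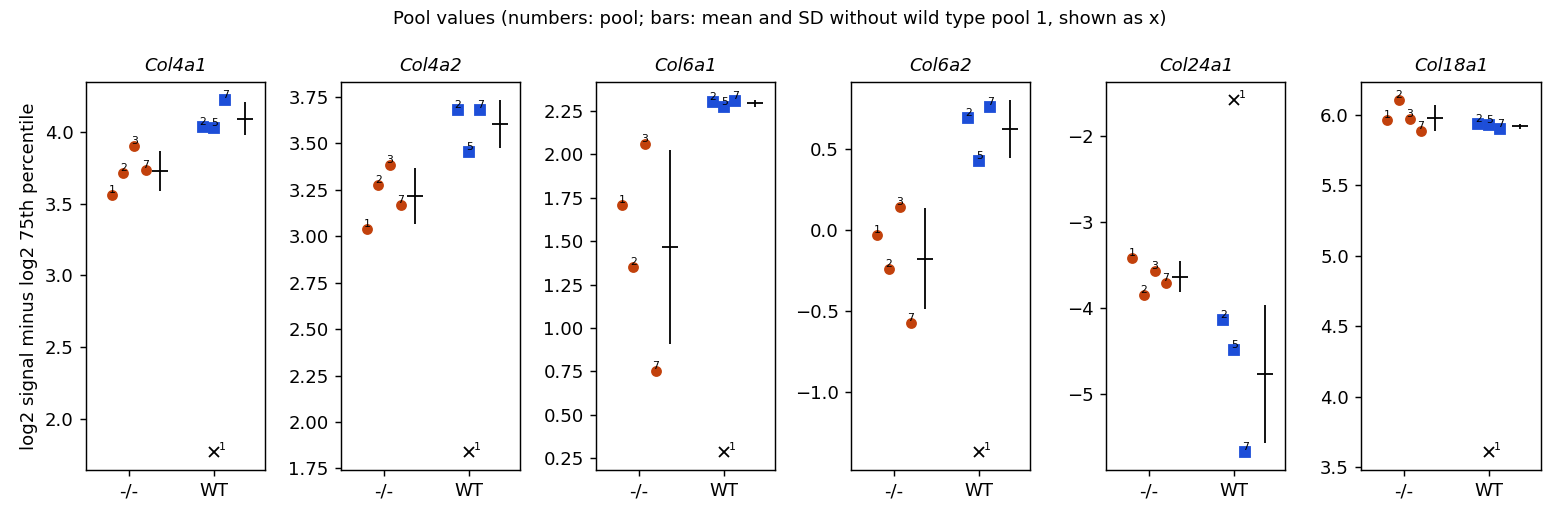
Pool values of the 5 collagen genes whose groups did not overlap over 7 arrays, with Col18a1 beside them, as log2 signal minus the log2 75th percentile (each panel has its own scale). Numbers give the pool, bars the mean and SD without wild type pool 1, which is drawn as a cross and lies below both groups in Col4a1, Col4a2, Col6a1, Col6a2 and Col18a1 and above them in Col24a1.

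The Col6a1 and Col6a2 genes lie on the same strand of chromosome 10 with starts 102414 bases apart, whereas Col4a1 and Col4a2 are transcribed in opposite directions from starts 21 bases apart on chromosome 8. Col4a5 and Col4a6 are likewise transcribed in opposite directions on the X chromosome, from starts 1343 bases apart (RefSeq, GRCm38.p6). The 250 bases before the starts of Col6a1, Col6a2 (its upstream start) and Col24a1 are shown because these genes separated the groups over 7 arrays; their positions are on GRCm38.p6, whereas all probe positions are on mm9, so the 2 kinds of position cannot be set against each other. The windows of Col4a1 and Col4a2 are not shown, since each lies within the transcribed part of the other gene. Capitals mark, on either strand, AGGTCA, the core of sites bound by many nuclear receptors, retinoic acid receptors among them. They also mark the GC box, GGGCGG. The CCAAT box and the TATA box (as TATAAA) were searched too and are not in these windows.
Col6a1, chr10:76726045-76726294, minus strand: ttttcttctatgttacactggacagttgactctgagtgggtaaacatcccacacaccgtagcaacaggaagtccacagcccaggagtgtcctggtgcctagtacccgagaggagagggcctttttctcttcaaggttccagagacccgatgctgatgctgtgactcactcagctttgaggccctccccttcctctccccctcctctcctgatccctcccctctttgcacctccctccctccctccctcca
Col6a2, chr10:76623631-76623880, minus strand: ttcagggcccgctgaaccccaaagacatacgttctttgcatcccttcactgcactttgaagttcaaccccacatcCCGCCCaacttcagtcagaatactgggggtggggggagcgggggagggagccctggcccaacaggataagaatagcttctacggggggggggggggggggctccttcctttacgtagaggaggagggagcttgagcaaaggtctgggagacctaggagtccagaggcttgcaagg
Col24a1, chr3:145292222-145292471, plus strand: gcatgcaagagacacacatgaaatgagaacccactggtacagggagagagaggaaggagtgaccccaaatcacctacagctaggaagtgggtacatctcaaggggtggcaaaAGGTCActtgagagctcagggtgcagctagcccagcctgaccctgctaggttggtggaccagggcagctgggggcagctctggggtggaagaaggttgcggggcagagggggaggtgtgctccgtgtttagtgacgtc
The Col6a1 window held none of the 4 motifs, that of Col6a2 held GGGCGG once on the other strand, and that of Col24a1 held AGGTCA once. Windows were listed for 32 collagen genes with 35 starts. Among the 35 collagen windows, GGGCGG was in 57.1%, beside 32.7% of all 32851 listed windows of that length. AGGTCA was in 7 of the 35, beside 14.0% of all windows. The CCAAT box was in 34.3% beside 33.8%, and the TATA box in 14.3% beside 12.4%. A match describes the letters of the window and nothing about binding.

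The other chains outside the named families stayed within their spread. Col8a1 and Col8a2 form short-chain networks in vessel walls and heart valves. Col8a2 read -1.86, -2.93, -1.67 and -2.95 in Raldh2-/- pools and -1.62, -2.38 and -1.78 across wild type pools 2, 5 and 7, a difference of -0.42 ± 0.38, and Raldh2-/- pools 2 and 7 lay below the rest. Col8a1 read -2.67, -2.12, -3.02 and -2.32 and -2.42, -2.82 and -2.31, a difference of -0.016 ± 0.24. With wild type pool 1, which read -0.41 for Col8a2 and -1.32 for Col8a1, the differences were -0.80 ± 0.50 and -0.32 ± 0.38. Col7a1, the chain of anchoring fibrils under stratified epithelium, was flat at -0.32, -0.15, -0.25 and -0.11 in Raldh2-/- pools and -0.29, -0.44 and -0.023 across wild type pools 2, 5 and 7, and differed by 0.046 ± 0.13. At -0.18, wild type pool 1 left 0.029 ± 0.23 over 8 arrays. Col13a1, a chain that stays in the cell membrane and whose probe is printed above, read -2.67, -2.67, -2.39 and -2.24 and -3.07, -2.51 and -1.31. It differed by -0.20 ± 0.38 over 7 arrays and -0.78 ± 0.62 over 8, where pool 1 read 0.063. The kept membrane chains Col23a1 and Col25a1 differed by -0.19 ± 0.24 and 0.17 ± 0.55 over 7 arrays and by -0.044 ± 0.31 and -0.52 ± 0.77 over 8, and the repeat probe of Col25a1 by -0.30 ± 0.40 over 7. Of all 8 kept chains outside the named families, Col6a1 and Col6a2 included, 6 were lower over 7 arrays, with a median of -0.19, and 7 over 8 arrays, with a median of -0.32. The median turned to 0.22 over 8 arrays under scaling by the array median, which moved the median of all kept probes to 0.59.

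The main fibrillar chains differed little between the groups once wild type pool 1 was left out. Col1a1 and Col1a2 are the chains of type I collagen, and Col3a1 forms type III fibrils in elastic tissue such as vessel walls. Col1a1 read 4.46, 4.11, 4.82 and 4.04 in Raldh2-/- pools and 4.61, 4.64 and 4.00 across wild type pools 2, 5 and 7, a difference of -0.062 ± 0.24 with a 95% interval of -0.63 to 0.51. Col1a2 read 6.13, 5.70, 6.36 and 5.64 and 5.99, 6.16 and 5.79 in the same pools, a difference of -0.024 ± 0.20. Col3a1 read 5.30, 4.99, 5.46 and 4.96 and 5.35, 5.59 and 4.94, a difference of -0.11 ± 0.20. In all 3 genes Raldh2-/- pools 1 and 3 and wild type pools 2 and 5 were high, and Raldh2-/- pools 2 and 7 and wild type pool 7 low. Wild type pool 1 read 1.95, 3.49 and 2.73, the lowest value of each gene. With it the differences were 0.56 ± 0.59, 0.60 ± 0.59 and 0.53 ± 0.60, each with a limma adjusted p of 0.749.

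Type V chains join type I fibrils and limit their width. Col5a1 read 3.06, 3.0, 3.41 and 2.45 in Raldh2-/- pools and 3.29, 3.25 and 3.35 across wild type pools 2, 5 and 7, a difference of -0.31 ± 0.21 (limma adjusted p = 0.623). Raldh2-/- pool 3 was the highest of the 7 pools and the other Raldh2-/- pools lay below each of these wild type pools. Col5a2 went the other way, at 1.17, 1.04, 1.34 and 0.87 against 1.03, 0.77 and 0.88, a difference of 0.21 ± 0.14, and the groups overlapped. The dim Col5a3 read -4.63, -4.12, -4.56 and -3.99 and -1.49, -3.95 and -4.73. Its difference of -0.93 ± 0.70 was 0.013 without wild type pool 2 and -1.60 without wild type pool 7, in which the probe was not well above background. Pool 1 read 1.17, -0.38 and -1.09 for the 3 genes, which gave 0.22 ± 0.52, 0.53 ± 0.36 and -1.51 ± 0.79 over 8 arrays.

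Col2a1, Col11a1 and Col11a2 are chains of cartilage-type fibrils, which embryonic heart cushions also make. Col2a1 read 6.35, 6.75, 6.10 and 6.57 in Raldh2-/- pools and 6.63, 6.30 and 6.69 across wild type pools 2, 5 and 7, a difference of -0.097 ± 0.18. Col11a1 read -0.34, -0.57, -0.59 and -0.11 and -0.062, -0.51 and -1.23, a difference of 0.20 ± 0.27, in which wild type pool 7 was low. Col11a2 read -3.47, -4.24, -3.67 and -3.06 and -3.17, -3.55 and -3.44, a difference of -0.22 ± 0.27. The groups overlapped in each of them. In wild type pool 1 these genes read 4.73, -1.19 and 0.80, so the bright Col2a1 lay below and the dim Col11a2 above the other pools. The differences over 8 arrays were 0.36 ± 0.46, 0.35 ± 0.33 and -1.27 ± 0.93.

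Col24a1, a minor fibrillar chain of developing bone and eye, was the only collagen gene higher in each Raldh2-/- pool than in wild type pools 2, 5 and 7. Its probe (chr3:145214473-145214532, plus strand) read -3.42, -3.85, -3.57 and -3.71 in Raldh2-/- pools 1, 2, 3 and 7 and -4.14, -4.50 and -5.68 across wild type pools 2, 5 and 7. The unscaled signals were 95.9, 66.3, 94.7 and 66.6 in the Raldh2-/- pools and 50.9, 41.0 and 12.8 in the wild type pools, and the last was not well above background. Over these 7 arrays the probe was therefore kept through the Raldh2-/- group, where it is high. The difference was 1.13 ± 0.35 (limma unadjusted p = 0.0129, adjusted p = 0.394). With wild type pool 7 set to the lowest signal that counts as above background on its array, 25.2, the difference was 0.81, a signal 1.75-fold higher. That setting bounds the value of this pool and not the difference between the groups. Over the settings that left out a further pool the difference lay between 0.68 (without wild type pool 7) and 1.45. Its sign could not turn there, since the groups do not overlap over these 7 arrays. Wild type pool 1 read -1.58, above every other pool, and with it the difference was 0.33 ± 0.75 (adjusted p = 0.823). Col27a1, a related chain of cartilage, differed by 0.017 ± 0.22 over 7 arrays and 0.17 ± 0.30 over 8. Of the 11 fibrillar genes 7 were lower over 7 arrays, with a median of -0.062 that turned positive, up to 0.048, when certain further pools were left out. Over 8 arrays 2 were lower, with a median of 0.35.

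Among FACITs no gene separated the groups. Col9a1 and Col9a2 are chains of type IX collagen, which coats type II fibrils. Col9a1 read 3.74, 3.80, 3.65 and 4.13 in Raldh2-/- pools and 4.42, 3.70 and 2.78 across wild type pools 2, 5 and 7, a difference of 0.19 ± 0.35, and the wild type pools spread on both sides of the Raldh2-/- pools. Col9a2 read 2.47, 2.57, 2.07 and 2.40 and 2.97, 1.99 and 1.66 with the same wild type order, a difference of 0.17 ± 0.30. Col9a3, the remaining chain of that trimer, read -0.79, -1.51, -0.86 and -2.14 and -0.62, -0.70 and -1.37, a difference of -0.43 ± 0.36. Raldh2-/- pools 2 and 7 were the lowest of these 7 pools for Col9a3 but not for the other type IX chains. Pool 1 read 1.44, 0.68 and -2.26, and the differences over 8 arrays were 0.74 ± 0.59, 0.55 ± 0.46 and -0.088 ± 0.47.

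Col12a1, Col14a1 and Col16a1 bind fibrils or matrix at tissue borders. Col14a1 read 0.66, 0.13, 0.91 and -0.33 in Raldh2-/- pools and 0.063, 0.38 and -0.63 across wild type pools 2, 5 and 7, a difference of 0.40 ± 0.35, while its repeat probe gave 0.13 ± 0.27. Col16a1 read 3.12, 2.37, 3.62 and 2.07 and 3.19, 3.12 and 3.02. Its wild type pools lay close together while Raldh2-/- pools ranged on both sides, and the difference was -0.32 ± 0.36, with -0.13 ± 0.17 for the repeat probe and -0.31 ± 0.34 for another probe. Col12a1 differed by -0.080 ± 0.24. Col22a1, known from muscle-tendon junctions, read 1.58, 1.75, 0.36 and 1.77 and 1.36, 1.00 and 0.82, a difference of 0.31 ± 0.36, in which Raldh2-/- pool 3 was the lowest of the 7 pools and the other 3 Raldh2-/- pools the highest. The dim Col20a1 read -3.28, -4.51, -2.91 and -4.10 and -3.17, -3.23 and -3.89, a difference of -0.27 ± 0.40. Over 8 arrays the differences were 0.81 ± 0.50 for Col14a1, 0.17 ± 0.55 for Col16a1, 0.34 ± 0.46 for Col12a1, 0.57 ± 0.43 for Col22a1 and -0.66 ± 0.51 for Col20a1. Pool 1 read -1.70, 1.14, -0.0017 and -1.88 for Col14a1, Col16a1, Col22a1 and Col20a1. Of the 8 FACITs 4 were lower over 7 arrays, with a median of 0.045 that turned to -0.16 under scaling by the array median and to -0.27 without wild type pool 7. Over 8 arrays 2 were lower, with a median of 0.45.

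Of the 8 collagen genes with several probes kept over 7 arrays, 4 had probes of opposite sign (Col9a1, Col18a1, Col23a1 and Col25a1), and in these 4 genes each probe differed by less than its SE.

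Some chains of a shared trimer rose and fell together from pool to pool, and others did not. Pearson's r was computed over the 7 pools other than wild type pool 1 for 9 pairs, 8 of chains that can share a trimer and the pair Col3a1 with Col1a1, whose trimers are separate. It is a description, since the pools share 2 groups and the arrays share their scaling. The permutation exchanges pools between the groups. For chains that differ between the groups, such as Col6a1, Col6a2, Col4a1 and Col4a2, r and its p therefore include that difference. Pearson's r was 0.95 for Col6a1 with Col6a2 (Spearman's rho 1.0, exact permutation p = 0.000198 and 0.000397, adjusted over the 9 pairs 0.00179 and 0.00357). For Col4a1 with Col4a2 r was 0.95 (rho 0.93, exact permutation p = 0.00218 and 0.00675, adjusted 0.00982 and 0.0202). For Col1a1 with Col1a2 r was 0.93 (rho 0.86, exact permutation p = 0.00694 and 0.0238, adjusted 0.0125 and 0.0357), and for Col3a1 with Col1a1 0.95 (rho 0.96, exact permutation p = 0.00516 and 0.00278, adjusted 0.0116 and 0.0125). For Col4a5 with Col4a6 it was 0.92 (rho 0.86, exact permutation p = 0.00496 and 0.0238, adjusted 0.0116 and 0.0357). These 5 pairs kept r of 0.88 to 0.92 without the 2 pools farthest from the median of the first chain. Over all 528 pairs of kept collagen genes the median r was 0.093 and the range -0.95 to 0.98, so a pair other than these 9 had the highest r.

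Type IX and type V chains were less even. For Col9a1 with Col9a2 r was 0.88 (rho 0.86, exact permutation p = 0.0131 and 0.0238, adjusted 0.0196 and 0.0357) but 0.45 without wild type pools 2 and 7, on which it rests. For Col9a2 with Col9a3 r was 0.11 (rho 0.18, exact permutation p = 0.821 and 0.713, adjusted 0.836 and 0.802), and -0.54 without wild type pools 2 and 7. For Col5a1 with Col5a2 it was 0.33 (rho 0.32, exact permutation p = 0.476 and 0.498, adjusted 0.613 and 0.640), and 0.078 without Raldh2-/- pools 2 and 7. For Col11a1 with Col2a1 it was -0.099 (rho -0.036, exact permutation p = 0.836 and 0.963, adjusted 0.836 and 0.963), and 0.27 without wild type pools 2 and 7. Within the Raldh2-/- group or the wild type group the pools are too few for a correlation of their own.

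For this and the further lists, the share of all genes that were lower is 40.3% over 7 arrays and 42.9% over 8. Genes that make and fold collagen were examined from a list of 23 measured genes, of which 15 were lower and 8 higher over 7 arrays, with a median of -0.065. None passed the adjusted threshold, 4 had an unadjusted limma p under 0.05, all lower, and 3 had groups that did not overlap, also all lower, beside the 4.16% and 4.80% of all genes lower by these rules. Over 8 arrays 1 gene had such a p and 1 no overlap, beside 1.11% and 1.52%. Plod1, which hydroxylates lysines of the new chain, read 0.55, 0.65, 0.44 and 0.51 in Raldh2-/- pools and 1.25, 0.99 and 1.23 across wild type pools 2, 5 and 7. The groups did not overlap, and the difference was -0.62 ± 0.11, or 1.54-fold lower (limma unadjusted p = 0.000707, adjusted p = 0.371). P4ha1, the catalytic subunit of a prolyl hydroxylase that stabilises the helix, read 0.43, 0.12, 0.49 and 0.048 and 1.11, 0.80 and 1.14, again without overlap. It differed by -0.74 ± 0.16, or 1.67-fold lower (limma unadjusted p = 0.00189, adjusted p = 0.371). The values in wild type pool 1 were 0.73 for Plod1 and 0.067 for P4ha1. Over 8 arrays these genes differed by -0.51 ± 0.24 and -0.50 ± 0.31 (adjusted p = 0.749 and 0.749), and both were lower in 19 of the 20 settings that include pool 1.

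The remaining genes of that list are named after their values were seen. P4ha2, an alternative catalytic subunit, differed by -1.33 ± 0.47 and the collagen galactosyltransferase Colgalt2 by -0.83 ± 0.30, both with overlapping groups, and by -1.02 ± 0.51 and -0.86 ± 0.32 over 8 arrays. Plod3, a further lysyl hydroxylase, did not overlap at -0.24 ± 0.12, but turned to 0.29 ± 0.50 over 8 arrays, with overlap. The chaperones Serpinh1, Fkbp10 and Ppib differed by 0.0080 ± 0.13, -0.040 ± 0.12 and -0.019 ± 0.11, and P4hb, the partner subunit of prolyl hydroxylase, by -0.19 ± 0.11. Over 8 arrays these 4 differed by 0.48 ± 0.46, 0.50 ± 0.51, 0.50 ± 0.49 and 0.24 ± 0.42. Over 8 arrays 6 of the 23 were lower, with a median of 0.18.

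In the list for propeptide cleavage and cross-linking 14 of 15 genes were kept, and over 7 arrays 6 were lower and 8 higher, with a median of 0.035. Loxl3, a lysyl oxidase-like cross-linking enzyme, read -1.69, -1.73, -1.60 and -1.81 in Raldh2-/- pools and -1.91, -1.94 and -2.11 across wild type pools 2, 5 and 7. It differed by 0.28 ± 0.10 without overlap (limma adjusted p = 0.45), and by 0.23 ± 0.23 over 8 arrays, where pool 1 read -1.77. Loxl3 was the only gene of the list higher without overlap, beside 6.62% of all genes. Sparc, named after its values were seen, was the only one lower without overlap, beside 4.80%. It differed by -0.16 ± 0.10 over 7 arrays and 0.38 ± 0.50 over 8. Adamts3, a procollagen N-propeptidase, differed by 0.82 ± 0.27 with overlapping groups, but its probe was above background on 4 of these 7 arrays only. That probe was kept through the Raldh2-/- group alone, where it is high over these 7 arrays. Over 8 arrays Adamts3 differed by -0.20 ± 0.91. Over 8 arrays 4 of the 14 were lower, with a median of 0.38.

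All 10 measured receptors and uptake genes were kept, and over 7 arrays 4 were lower and 6 higher, with a median of 0.11. Itga1 and Itgb1 encode the subunits of the α1β1 integrin, a receptor for basement membrane collagen. Itga1 read 0.71, 0.90, 0.87 and 0.38 in Raldh2-/- pools and 0.99, 1.11 and 1.30 across wild type pools 2, 5 and 7, without overlap, a difference of -0.42 ± 0.16 (limma adjusted p = 0.45). Itgb1 read 3.15, 3.02, 3.03 and 3.20 and 3.24, 3.46 and 3.29, also without overlap, a difference of -0.23 ± 0.11 (limma unadjusted p = 0.0654, adjusted p = 0.51). These 2 were the only genes of the list without overlap, beside 4.80% of all genes lower without overlap. With pool 1, at -0.46 and 1.44, the differences were -0.020 ± 0.41 and 0.24 ± 0.45. Over 8 arrays 6 of the 10 were lower, with a median of -0.018.

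Of 15 breakdown genes 9 were kept, and over 7 arrays 3 were lower and 6 higher, with a median of 0.047. Over 8 arrays 0 were lower, with a median of 0.47. Timp3, an inhibitor of matrix proteases that is held in the matrix, read 3.08, 2.96, 3.26 and 2.81 in Raldh2-/- pools and 3.62, 3.60 and 3.40 across wild type pools 2, 5 and 7. The groups did not overlap, and it differed by -0.51 ± 0.13, or 1.43-fold lower (limma unadjusted p = 0.00622, adjusted p = 0.379), and by 0.030 ± 0.51 over 8 arrays, where pool 1 read 1.37. Timp3 was the only gene of the list without overlap, beside 4.80% of all genes lower without overlap. Mmp1b, of the interstitial collagenase family, was not well above background in wild type pools 2, 5 and 7 and above it in 3 of 4 Raldh2-/- pools, so over these 7 arrays it was kept through the group where it is high. With each of these wild type arrays set to its lowest signal that counts as above background, the signal was 1.79-fold higher in Raldh2-/- pools. The measured means were -4.53 and -7.00 (limma adjusted p = 0.495). The Raldh2-/- pool that was not above background entered at its measured value. That setting therefore bounds the wild type values and not the difference between the groups. In wild type pool 1 the Mmp1b signal was the highest of the 8, and over 8 arrays the difference was 0.69 ± 1.75.

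**Figure D5:**
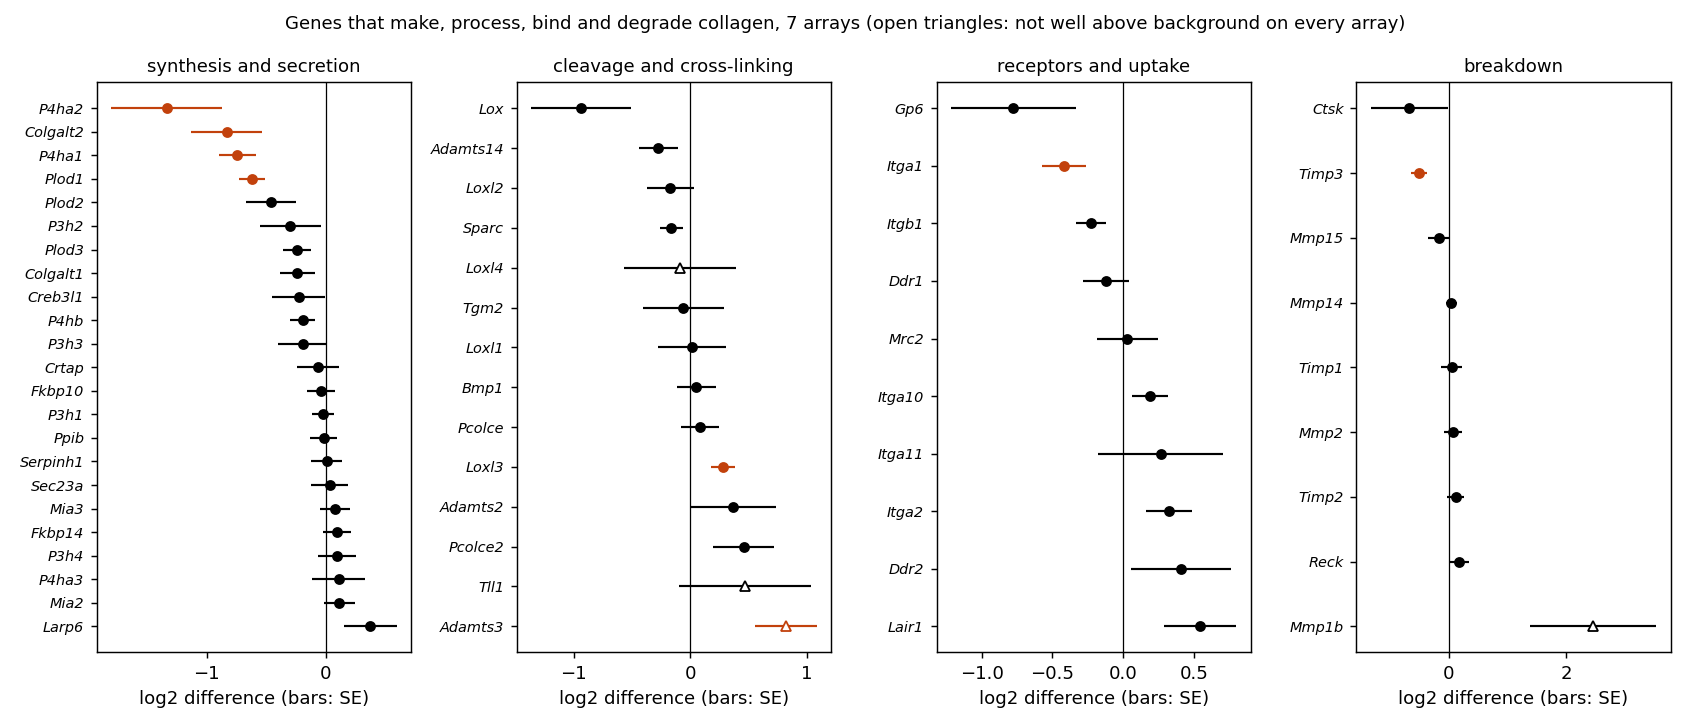
Log2 difference, rescued Raldh2-/- minus rescued wild type, over 7 arrays, with SE as bars, for genes that make, process, bind and degrade collagen. Coloured points have an unadjusted limma p under 0.05 and none passed the adjusted threshold. Open triangles mark probes not well above background on all 7 arrays. Plod1 and P4ha1 lie to the left with short bars.

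Markers of the cell types that a dissected tract can hold were read beside these values. Counts and medians are given over 7 arrays and then over 8, and summed levels for Raldh2-/- pools and wild type pools 2, 5 and 7. A summed level is the log2 of the sum of the scaled, unlogged signals of the kept markers of a list. The brightest markers weigh most in it, so it does not measure the number of cells. Of all genes, 40.3% were lower over 7 arrays and 42.9% over 8. All 10 cardiomyocyte markers were lower in Raldh2-/- tracts over 7 arrays (median -0.19), but 2 were lower and 8 higher over 8 arrays (median 0.29), with a summed level of 10.34 to 10.56 against 10.37 to 11. Of 6 smooth muscle markers 4 were lower over 7 arrays and 1 over 8 (medians -0.085 and 0.41, 8.72 to 8.87 against 8.73 to 9.27). Of 7 epithelial markers 4 were lower in either fit (medians -0.016 and -0.14, 5.42 to 5.96 against 5.84 to 6.53). Among them, named after their values were seen, Krt19 differed by -1.87 ± 0.24 over 7 arrays and -1.49 ± 0.43 over 8, and Krt8 by -0.69 ± 0.16 and -0.25 ± 0.44, while Foxa2, Cdh1 and Epcam were higher over 7 arrays at 1.29 ± 1.24, 0.73 ± 1.07 and 1.22 ± 1.22.

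Of 8 endothelial and endocardial markers 5 were lower over 7 arrays and 3 over 8 (medians -0.056 and 0.27, 4.23 to 4.59 against 4.36 to 4.48). Of 9 cushion mesenchyme markers 3 were lower over 7 and 0 over 8 (0.11 and 0.65, 6.15 to 6.46 against 6.02 to 6.53). Of 5 kept neural crest markers, without Foxd3, 3 and 2 were lower (-0.15 and 0.30, 2.04 to 2.29 against 2.19 to 2.34), and of 6 epicardial markers, Aldh1a2 among them, 4 and 3 (-0.29 and -0.045, 3.05 to 4.14 against 4.06 to 4.69). All 6 neuronal markers were higher over 7 arrays and 5 over 8 (0.47 and 0.44, 2.65 to 2.92 against 2.05 to 2.63), and all 6 erythroid markers in both fits (0.65 and 1.03, 9.87 to 10.53 against 9.57 to 10.46). The 6 macrophage markers were all higher over 7 arrays, but 4 were lower over 8 (0.34 and -0.19, 1.83 to 2.67 against 1.61 to 2.70). Of 8 kept chondrogenic and notochord markers 5 were lower in either fit (-0.078 and -0.59, 3.64 to 4.26 against 3.86 to 4.41), and the defining genes Matn1, Noto and T were not kept. The part of these shifts in the collagen differences was not tested.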

How the data were processed

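RNA of 8 pools was labelled with Cy3 and read on one-colour Agilent arrays with 60-base probes. The deposited values are linear intensity per spot from Feature Extraction 10.7.3.1; per the file headers, the processed signal was background-subtracted and detrended within the array and not scaled between arrays. Of 59305 spots other than controls, those flagged as outliers were left out and spots of 1 probe averaged. The log2 of each array's 75th percentile was subtracted, and kept probes were fitted with limma 3.58.1 in R 4.3.3 (two-sided, Benjamini-Hochberg, threshold 0.05). The number of arrays limits the precision.

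The members, lists and tests were chosen with earlier results of these data known. Named genes are, in each class, the 3 with the highest mean signal and the 3 with the smallest unadjusted p in either fit, with their partner chains; in each pathway list, the 2 with the smallest p; and Aldh1a2. Gene names and mm9 positions are those of the array files, of which 56 collagen probes matched a RefSeq symbol; promoter windows are RefSeq's (GRCm38.p6). Exon or UTR positions of probes were not analysed here. In the file of Raldh2-/- pool 1, 47 gene names had turned into dates, so names were taken from another file. The fit was tested on simulated data. Alternatives were other scalings, filters, background correction, error models, blocks and pools left out; leaving out a further pool beside wild type pool 1, and setting values below background to the array's lowest value above it, were chosen after seeing the data.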

Additional observations from a re-analysis of the deposited data

Results flagged for a closer look

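In 12 of the 58 groups of 4 pools examined for the named collagen genes, the highest or lowest pool stood far from the rest, beside about 2.9 groups that chance would give. In 10 of them it was wild type pool 1. It was low for Col1a2 (3.49, other wild type pools 5.79 to 6.16), Col5a1 (1.17, others 3.25 to 3.35), Col4a1 (1.77, others 4.02 to 4.22), Col4a2 (1.84, others 3.46 to 3.68), Col18a1 (3.61, others 5.90 to 5.94), Col16a1 (1.14, others 3.02 to 3.19), Col6a1 (0.29, others 2.27 to 2.31) and Col6a2 (-1.37, others 0.43 to 0.76). It was high for the dim probes of Col11a2 (0.80, others -3.55 to -3.17) and Col4a4 (0.89, others -3.84 to -3.16). Among Raldh2-/- pools, pool 7 was high for Col4a4 (-1.70, others -3.75 to -3.57) and pool 3 low for Col22a1 (0.36, others 1.58 to 1.77). Values are log2 signals minus the log2 75th percentile of the array.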

How the results depend on the processing

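None of the 29 named collagen genes or 8 named pathway genes passed the adjusted threshold under any alternative that kept their probes. There were 29 for 33 of these genes, 28 for Col24a1 and Col5a3, and 22 for Mmp1b and Adamts3. The number of probes past it, 0 over 8 arrays, was 10 with array weights and 11 under scaling by the array median without wild type pool 1; over the fits that left out 1 pool, or wild type pool 1 and a further pool, it lay between 0 and 7, with 1 probe without Raldh2-/- pool 7 and 7 without wild type pool 5 beside pool 1. Scaling by the array median moved the median of all kept probes from 0.051 to 0.59 over 8 arrays and from 0.054 to -0.15 over 7. Under it the collagen median over 8 arrays went from 0.17 to 0.71, the fibrillar median to 0.89 and that of the other chains to 0.22; without wild type pool 1 the fibrillar median was -0.27. Leaving out pools, the collagen median lay between -0.23 and 0.28 and the FACIT median between -0.27 and 0.71, and both were lowest without wild type pools 1 and 7. Leaving out wild type pool 1 changed the sign of 10 of 29 named collagen genes; array weights gave a collagen median of -0.092 with all 8 arrays. Pools of the same number were not treated as pairs. Their deviations from the group means correlated at -0.16, 0.31 and -0.38 for pools 1, 2 and 7. The wild type mean included the unlike pool 1, so these values cannot tell whether such pools are paired. With the replicate block 0 probes passed the adjusted threshold, with 292 at an unadjusted limma p under 0.05. Dim probes limit what can be read: 31 collagen probes had a median signal under 300, and their signal on wild type pool 1 was 10.4 to 509 times that.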
